A study of Rattus norvegicus with 6 samples.

Results

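The genes described here are 9 genes that drive muscle differentiation and cell fusion: the myogenic bHLH (basic helix-loop-helix) factors Myod1, Myf5, Myog and Myf6, the MEF2 factors Mef2a, Mef2c and Mef2d, and the fusion proteins Mymk (myomaker) and Mymx (myomixer). They were chosen by symbol, and all 9 were found among the 40456 genes of the count table. The 6 libraries came from H9c2 cells, a rat cardiomyoblast line of wild-type genotype, labelled as cardiomyocyte. All had been kept for 5 days in 1% serum with 1 µM retinoic acid, and all received a locked nucleic acid gapmer at 25 nM for the last 24 h. Gapmers are antisense oligonucleotides that lead RNase H to cleave a paired RNA. In 3 libraries the gapmer was a negative control, and in 3 it targeted the long non-coding RNA Tug1. The comparison asked how the transcripts of the 9 genes differed between these groups.

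The gapmers that define the groups read, 5′ to 3′:
Tug1 gapmer: attcagtagacagcta
control gapmer: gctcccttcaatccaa
One gapmer sequence was used per group, so an effect of Tug1 loss and any other effect of that oligonucleotide cannot be told apart.

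In muscle precursors Myod1 and Myf5 mark commitment to the lineage, and Myog and Myf6 act later, when cells leave the cycle and differentiate. These factors bind DNA at E-boxes as dimers with E proteins (products of Tcf3, Tcf4 and Tcf12), while Id proteins tie up E proteins in dimers that do not bind DNA. MEF2 factors act with them on muscle genes, and myomaker and myomixer then join the membranes of fusing myoblasts.

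Counts are given below for replicates 1, 2 and 3 of each group, in that order. Library totals ran from 12978548 to 13544337, and 14216 genes passed the filter on low counts. Tug1 was at 54.0 ± 1.77 CPM (counts scaled by library size and TMM factor; SD, n = 3) in controls and fell to 11.9 ± 0.609 CPM (SD, n = 3) with its gapmer. The labels do not say whether replicates came from separate cultures, so p-values measure only the spread between these libraries. Of 16 heart muscle markers, 7 (Myh6, Myh7, Nppb, Ryr2, Nkx2-5, Tbx5 and Tbx20) had at most 3 counts in every library, which goes against the labelled cell type, whereas Tnnt2 (349 CPM in controls), Pln (23.4 CPM) and Gata4 (12.7 CPM) were well above that limit. The heart list summed to 375 to 404 CPM in controls and 417 to 469 CPM in the knockdown libraries. Most of these sums was Tnnt2 alone (335 to 369 CPM in controls, 391 to 439 CPM with the knockdown). Tnnt2 is also on the list of bHLH target genes below. Of 5 tested heart markers, 2 were called higher (Tnnt2 and Myl2) and 1, Pln, lower. Tnni3, Nppa, Myl7 and Myl3 had at most 4 counts in any library and were not tested. None of 17 skeletal muscle markers was at or under 3 counts in every library. Their summed level was 1355 to 1386 CPM in controls and 1728 to 1881 CPM in the knockdown libraries, and 11 of the 15 tested were called higher and 1, Myh1, lower. The 7 smooth muscle markers summed to 985 to 1081 CPM in controls and 1152 to 1305 CPM in the knockdown libraries, with 4 called higher and 0 lower. The 9 fibroblast markers summed to 43814 to 45162 CPM in controls and 41192 to 43997 CPM in the knockdown libraries. Almost all of this was collagen, with Col1a1 at 21693, Col1a2 at 15138 and Col3a1 at 6426 CPM in controls. Of 7 tested fibroblast markers, Col3a1 (0.47 on the log2 fold change scale) and Dcn (0.57) were called higher. Col1a1 (-0.23), Thy1 (-0.40) and Postn (-0.47) were called lower. Pdgfra had 3 to 8 counts per library and was not tested, and Tcf21 had 0 counts. The 7 endothelial markers summed to 3.10 to 4.63 CPM over the libraries, and 4 of them, Pecam1, Cdh5, Kdr and Emcn, had at most 3 counts in every library. The 7 blood cell markers summed to 11.1 to 12.8 CPM in controls and 15.7 to 17.5 CPM in the knockdown libraries. Ptprc, Hbb and Hba-a1 had 0 counts, Csf1r was at 7.65 and 8.83 CPM without a call, and Cd68 was called higher, from 3.60 to 7.65 CPM. The part of these shifts in the results below was not tested. In bulk RNA, a change in the number of differentiating cells and a change in RNA per cell cannot be told apart.

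Upstream sequences are shown for the members that were called higher and had a window in the RefSeq promoter table, since their calls shared a direction. The call of Myf6 was lost in 10 of 16 alternatives. The table, on build GRCr8, matched 6 of the 9 members; Myod1, Mymk and Mef2c had no entry used here. Each line gives the 250 bases before the start site, 5′ to 3′ on the strand of the gene. Capitals mark an E-box (CANNTG), the MEF3 motif of muscle promoters (TCAGGTT), or the MEF2 consensus with its last base free.
Myog (chr13:48297226-48297475, plus strand): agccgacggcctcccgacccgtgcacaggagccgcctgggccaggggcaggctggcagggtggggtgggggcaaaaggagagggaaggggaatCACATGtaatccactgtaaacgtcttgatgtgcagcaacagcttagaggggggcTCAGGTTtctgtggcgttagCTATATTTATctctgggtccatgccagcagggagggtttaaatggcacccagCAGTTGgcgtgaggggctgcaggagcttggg
Myf6 (chr7:44701314-44701563, minus strand): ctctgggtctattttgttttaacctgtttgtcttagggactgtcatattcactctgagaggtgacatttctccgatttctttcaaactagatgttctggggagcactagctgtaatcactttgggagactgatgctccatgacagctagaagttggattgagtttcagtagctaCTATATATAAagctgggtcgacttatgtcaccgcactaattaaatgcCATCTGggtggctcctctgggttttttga
Mymx (chr9:22894274-22894523, plus strand): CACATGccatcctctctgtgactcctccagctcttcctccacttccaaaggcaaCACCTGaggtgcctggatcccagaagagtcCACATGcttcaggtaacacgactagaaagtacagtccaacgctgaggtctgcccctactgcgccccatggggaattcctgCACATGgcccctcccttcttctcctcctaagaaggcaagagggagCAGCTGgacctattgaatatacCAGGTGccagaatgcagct
Mef2d (chr2:175904082-175904331, plus strand): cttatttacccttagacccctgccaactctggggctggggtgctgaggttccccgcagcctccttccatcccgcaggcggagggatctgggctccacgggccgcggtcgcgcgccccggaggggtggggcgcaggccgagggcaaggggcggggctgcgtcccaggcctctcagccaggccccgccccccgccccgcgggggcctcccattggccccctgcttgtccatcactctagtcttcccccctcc

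The 4 windows differed in what they held, with both strands searched. The Myog window had 2 E-boxes, 1 MEF3 match and 1 match to the MEF2 consensus with its last base free. The Mymx window had 6 E-boxes, against a median of 1 over the windows of 27457 genes, and 1 of the 6 was the form CAGCTG. Mymx has 3 start sites in RefSeq, and only the window at the annotated gene start was searched. For the 27457 genes the first window of each was taken. The Myf6 window had 1 E-box and 1 match to the full MEF2 consensus. The Mef2d window held none of these motifs, and its GC content was 73.2%. Among all 27457 windows of this length, 65.2% held an E-box, 11.9% held CAGCTG, 3.35% held the MEF3 letters, 3.07% the full MEF2 consensus and 7.63% that consensus with its last base free. Mef2a, whose level did not pass the test, also had 1 full MEF2 consensus match in its window. That window belongs to a start site inside the annotated gene. The Myf5 window held no match. A match describes these letters and is not evidence of binding.

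Of the 9 genes, 8 passed the filter, and 6 of the 8 were called at an adjusted p under 0.05 in edgeR's quasi-likelihood test, beside 61.7% of all tested genes. Of these, 5 rose (Myog, Myf6, Mef2d, Mymk and Mymx; 30.8% of all tested genes were called higher) and Myod1 fell (30.9% lower). With 8 genes tested, 6 of 8 is near the background share. The median log2 fold change of the 8 was 0.45, and that of all tested genes was 0.00. The groups did not overlap for the same 6 genes, beside 65.6% of all tested genes.

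**Figure D1:**
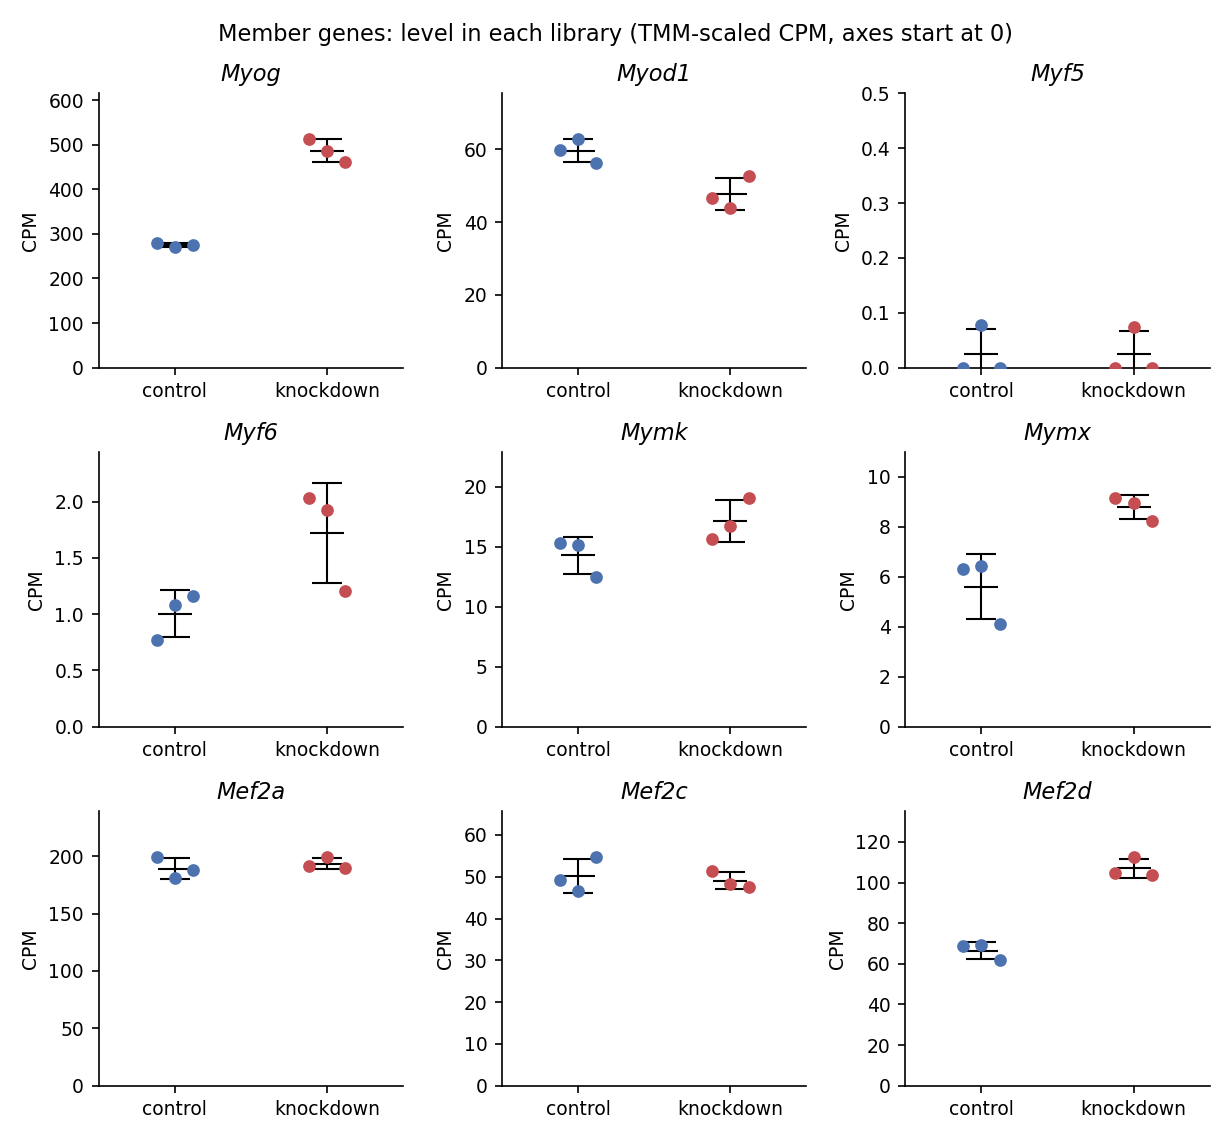
Level of each of the 9 genes in TMM-scaled CPM (vertical axis, from 0, one scale per panel) in the 3 control and 3 knockdown libraries; points are libraries, the bars the mean and SD. Myog went from 275 to 486 CPM on average while Myod1 went from 59.7 to 47.8 CPM, and Myf5 had 1 count in 1 library of each group.

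The myogenic bHLH factors moved in different directions. Myog, which encodes myogenin, had 3651, 3505 and 3562 counts in the control libraries, and 7067, 6571 and 6102 in those with the knockdown. Its lowest knockdown library was well above its highest control library. The level rose from 275 ± 4.39 to 486 ± 25.7 CPM (SD, n = 3), or 1.77-fold (95% interval 1.65 to 1.89). The log2 fold change was 0.82 (standard error 0.0461, adjusted p 7.99e-13 in edgeR). Its size exceeded that of 84.9% of tested genes.

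Myod1, which encodes MyoD, had 781, 811 and 730 counts in the control libraries, and 643, 594 and 698 in those with the knockdown. Every knockdown library was below every control library once scaled to library size, with knockdown replicate 3 nearest to the controls. The level fell from 59.7 ± 3.25 to 47.8 ± 4.50 CPM (SD, n = 3), to 80.0% of control. The log2 fold change was -0.32 (standard error 0.069, adjusted p 0.000324 in edgeR). Across 13084 tested genes with a RefSeq span, log2 fold changes rose with genomic span (Spearman's rho 0.269, a description over genes of the same libraries). With an offset that removes this trend, chosen with it known, Myod1 was at -0.13 and was not called (edgeR adjusted p 0.0983). Myog, a gene of similar span, was at 1.01 with the same offset (edgeR adjusted p 1.01e-14).

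Myf6, which encodes MRF4, was near the limit of detection. It had 10, 14 and 15 counts in the control libraries, and 28, 26 and 16 in those with the knockdown. Knockdown replicates 1 and 2 were clearly higher, and replicate 3, at 1.21 CPM, barely exceeded the highest control library at 1.16 CPM. The log2 fold change was 0.78 (standard error 0.32, adjusted p 0.0376 in edgeR). The call was lost without any 1 of the control libraries or of knockdown replicates 1 and 2, with values from 0.62 to 0.89 in those 5 fits (edgeR adjusted p 0.0523 to 0.151).

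Myf5 had 0, 1 and 0 counts in the control libraries, and 0, 1 and 0 in those with the knockdown, and was not tested. The exact Poisson interval for the 1 count summed over a group was 0.0253 to 5.57 counts, which covers counting error only. Any Myf5 transcript was below what this depth can measure, and no fold is given.

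Of the MEF2 genes, Mef2d alone was called. Mef2d had 897, 892 and 800 counts in the control libraries, and 1443, 1521 and 1375 in those with the knockdown. The groups were well apart. The level rose from 66.5 ± 4.17 to 107 ± 4.80 CPM (SD, n = 3), or 1.61-fold (95% interval 1.48 to 1.75), with a log2 fold change of 0.69 (standard error 0.0587, adjusted p 8.07e-10 in edgeR). The length offset left it at 0.67.

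Mef2a had 2597, 2339 and 2433 counts in the control libraries, and 2642, 2693 and 2514 in those with the knockdown. The scaled libraries of the groups overlapped, at 189 ± 9.18 and 194 ± 4.99 CPM (SD, n = 3). The log2 fold change was 0.03 (95% interval -0.07 to 0.13, edgeR adjusted p 0.59). Mef2c had 641, 602 and 709 counts in the control libraries, and 708, 651 and 629 in those with the knockdown, again with overlap. Its log2 fold change was -0.03 (95% interval -0.17 to 0.11, edgeR adjusted p 0.688). Both intervals lay below that of Mef2d (0.56 to 0.81).

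The result for Mef2a and Mef2c rested on how gene span was treated. Both are long genes, with genomic spans of 134737 and 162908 bases in RefSeq, against 29120 for Mef2d. With the length offset Mef2a was called lower at -0.21 (edgeR adjusted p 0.000399) and Mef2c at -0.31 (edgeR adjusted p 0.000212). The family member Mef2b had 3 to 9 counts per library and was not tested.

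**Figure D2:**
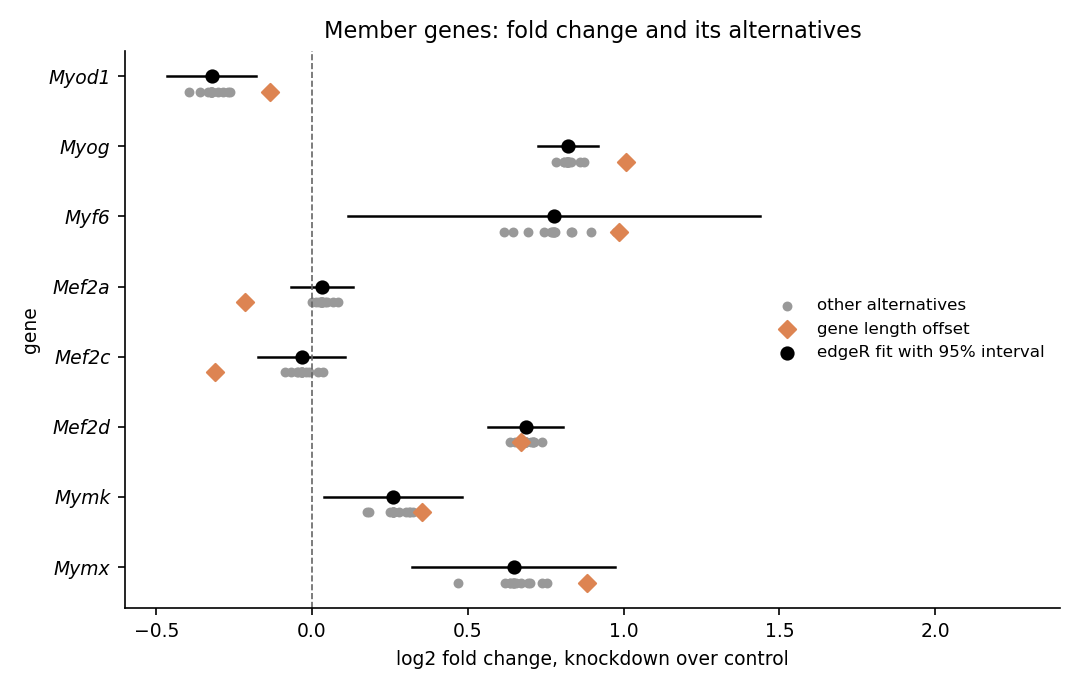
Log2 fold change, knockdown over control (horizontal axis), of the 8 tested genes; black points and lines are the edgeR estimate and its 95% interval, grey points the other settings, and diamonds the length offset. Myog, Myf6, Mef2d, Mymk and Mymx were to the right of 0 under every setting plotted (the offset joined to the replicate block is not drawn). The diamonds of Mef2a (-0.21) and Mef2c (-0.31) sit away from their other points.

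Both fusion genes were called higher, by different amounts. Mymx, whose product is a small membrane protein that opens the fusion pore, had 82, 83 and 53 counts in the control libraries, and 126, 121 and 109 in those with the knockdown. The groups did not overlap, and control replicate 3 was the lowest library. The level rose from 5.60 ± 1.31 to 8.77 ± 0.477 CPM (SD, n = 3), which is 0.65 on the log2 fold change scale (standard error 0.157, adjusted p 0.00109 in edgeR). Without control replicate 3 it was 0.47 and still called (edgeR adjusted p 0.0114).

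Mymk, whose product starts the mixing of the membranes, had 199, 195 and 162 counts in the control libraries, and 216, 226 and 252 in those with the knockdown. The groups came close, with the highest control library at 15.3 CPM and the lowest knockdown library at 15.7 CPM. The level rose from 14.3 ± 1.55 to 17.1 ± 1.73 CPM (SD, n = 3), which is 0.26 on the log2 fold change scale (standard error 0.107, adjusted p 0.0379 in edgeR). The call was lost without control replicate 3 (0.18, edgeR adjusted p 0.184) and without knockdown replicate 3 (0.18, edgeR adjusted p 0.186).

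The partners and inhibitors of the bHLH factors were compared next. Counts of calls on this list and the 5 that follow stand beside 61.7% of all tested genes called, 30.8% higher and 30.9% lower, and a share near these is not a result about a list. All 4 Id genes fell. Id1 had 1567, 1662 and 1575 counts in the control libraries, and 697, 785 and 608 in those with the knockdown. Its level fell from 123 ± 4.56 to 51.5 ± 6.13 CPM (SD, n = 3), which is -1.26 on the log2 fold change scale (standard error 0.0672, adjusted p 3.40e-13 in edgeR). Id4 had the lowest log2 fold change of the list at -1.69 (SE 0.133), from 18.2 to 5.61 CPM. Id2 was at -0.86 and Id3, chosen after its values were seen, at -0.71. The groups did not overlap for any Id gene, and all 4 were lower and called in each of 16 alternatives. The falls were smaller with the length offset, at -1.02 for Id1, -0.66 for Id2, -0.49 for Id3 and -1.50 for Id4.

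Other repressors on this list were mixed. Twist1 (-0.51), Snai1 (-0.78), Snai2 (-0.51) and Bhlhe40 (-0.30) fell, and Zeb1 (0.44) and Zeb2 (0.32) rose. Twist2 (-0.05, edgeR adjusted p 0.825) and Bhlhe41 (-0.37, edgeR adjusted p 0.178) were not called. With the length offset Zeb1 was at 0.16, Zeb2 at 0.08 without a call, Twist1 at -0.31 and Bhlhe40 at -0.17. These repressors, apart from the Zeb genes, were chosen after their values were seen. The E protein genes moved little. Tcf4 (0.19, edgeR adjusted p 0.0411) and Tcf12 (0.12, edgeR adjusted p 0.0435) were called higher but were called lower with the length offset (-0.19 and -0.25). Tcf3 was at 0.13 without a call (edgeR adjusted p 0.0645), and with the length offset it was called higher (0.15, edgeR adjusted p 0.0279). In all, 12 of 15 tested genes on the list were called (80%, beside 61.7% of all tested genes), 4 higher and 8 lower, with a median of -0.37. With the length offset, 2 were higher and 10 lower.

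**Figure D3:**
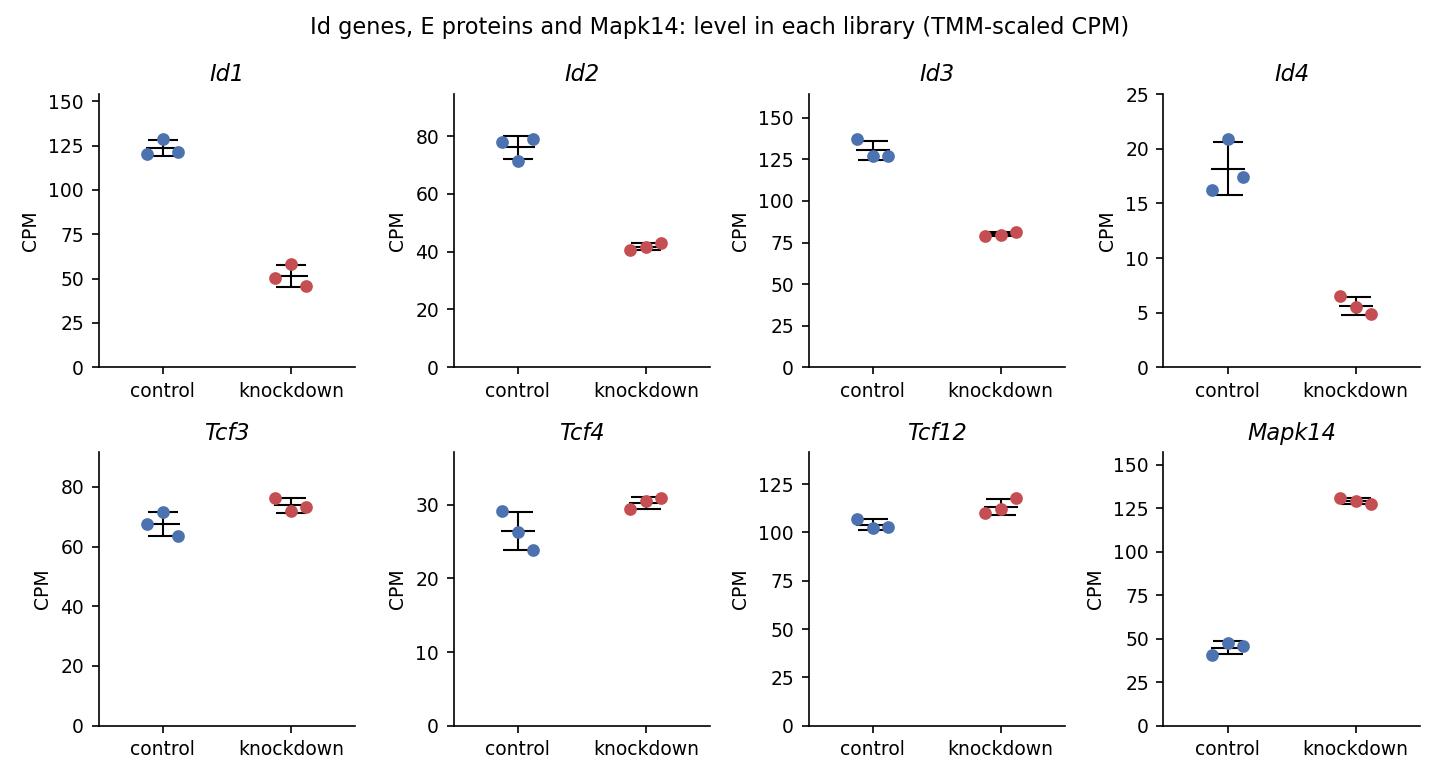
Level in TMM-scaled CPM (vertical axis, from 0) of the Id genes, the E protein genes and Mapk14 in the 3 control and 3 knockdown libraries; points are libraries, the bars the mean and SD. Every knockdown library is below every control library for the 4 Id genes, and Mapk14 went from 44.8 to 129 CPM.

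Factors that act before the bHLH genes gave 7 calls among 12 tested genes (58.3%, beside 61.7% of all tested genes), 3 higher and 4 lower, with a median of -0.12. That share is near the background. Among the higher ones were the transcriptional coactivator genes Eya3 (1.05), which went from 29.5 to 61.2 CPM, and Eya1 (0.31). Eya1 was at -0.03 without a call under the length offset. Six4 (-0.31), the dystroglycan gene Dag1 (-0.35) and Igf2 (-0.15, or -0.0926 with library totals) fell. The satellite cell factors Pax3 and Pax7 were not tested, with 0 counts for Pax3 and 2 to 8 counts per library for Pax7. With the length offset 2 genes of the list were higher and 6 lower, with a median of -0.18.

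Regulators of MEF2 gave 15 calls among 21 tested genes (71.4%, beside 61.7% of all tested genes), 10 higher and 5 lower, with a median of 0.16. Mapk14, which encodes the kinase p38α that phosphorylates MEF2 proteins, had 530, 615 and 597 counts in the control libraries, and 1809, 1744 and 1688 in those with the knockdown. Its log2 fold change was 1.53 (standard error 0.0603, adjusted p 2.17e-15 in edgeR), larger than that of any member. The coactivator gene Ncoa2 (0.78) and Prkd1 (0.68), whose kinase product phosphorylates class IIa histone deacetylases, rose. Those deacetylases hold MEF2 in check; Hdac4 (0.51) and Hdac5 (0.49), chosen after their values were seen, rose, while Hdac7 (-0.27), Mrtfa (-0.30) and Srf (-0.21) fell. Hdac4 (0.16) and Srf (-0.12) lost their calls with the length offset, under which 7 genes of the list were higher and 3 lower. The offset put Ncoa2 at 0.44, Prkd1 at 0.31 and Mrtfa at -0.59, all still called.

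Known target genes of the bHLH factors were mostly higher. Of 32 tested, 25 were called (78.1%, beside 61.7% of all tested genes), 22 higher and 3 lower, where 30.8% of all tested genes were called higher and 30.9% lower. The median log2 fold change was 0.43. Myom1, a protein of the sarcomere's M-band, rose from 32.1 ± 2.62 to 66.4 ± 2.08 CPM (SD, n = 3), which is 1.05 on the log2 fold change scale. The cardiac actin gene Actc1 (0.97) and Myom2 (0.88) followed. Embryonic myosin Myh3 (0.64) and muscle creatine kinase Ckm (0.61), chosen after their values were seen, also rose. The lower ones, all by small amounts, were the acetylcholine receptor subunits Chrnd (-0.17) and Chrnb1 (-0.15) and the RNA-binding protein gene Rbm38 (-0.15). These 3 lost their calls with library totals in place of TMM and with the length offset. Cdh15, the M-cadherin gene, was at 145 and 148 CPM and was not called (0.03, 95% interval -0.08 to 0.13). This list shares 10 genes with the skeletal muscle markers above.

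MEF2 targets of striated muscle gave 20 calls among 28 tested genes (71.4%, beside 61.7% of all tested genes), 19 higher and 1 lower, with a median of 0.52. Of all tested genes 30.8% were called higher. The calsarcin gene Myoz3 had 13, 10 and 3 counts in the control libraries, and 37, 49 and 36 in those with the knockdown, a log2 fold change of 2.16 (standard error 0.342, adjusted p 8.54e-06 in edgeR). The thin-filament gene Lmod2 (1.71) and the small heat shock protein gene Hspb3 (1.12) also rose from low levels of 1.85 and 1.10 CPM. Asb5 was the 1 gene called lower (-0.26), and its groups overlapped. With the length offset it was at -0.39, and without control replicate 1 it was at -0.18 and not called.

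Adhesion and membrane genes of fusion went both ways, with 23 calls among 31 tested genes (74.2%, beside 61.7% of all tested genes), 12 higher and 11 lower, and a median of 0.03. Bin1, which shapes membrane tubules, had 964, 959 and 935 counts in the control libraries, and 2181, 2173 and 2024 in those with the knockdown, a log2 fold change of 1.10 (standard error 0.0513, adjusted p 3.90e-14 in edgeR). The exchange factor gene Trio rose by 0.86 (0.50 with the length offset), and Tmem182 (0.82) rose from 1.03 to 1.82 CPM. The small GTPase Arf6 (-0.78), the integrin subunit Itga3 (-0.64) and Plekho1 (-0.51) fell. With the length offset 8 genes of the list were higher and 12 lower.

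**Figure D4:**
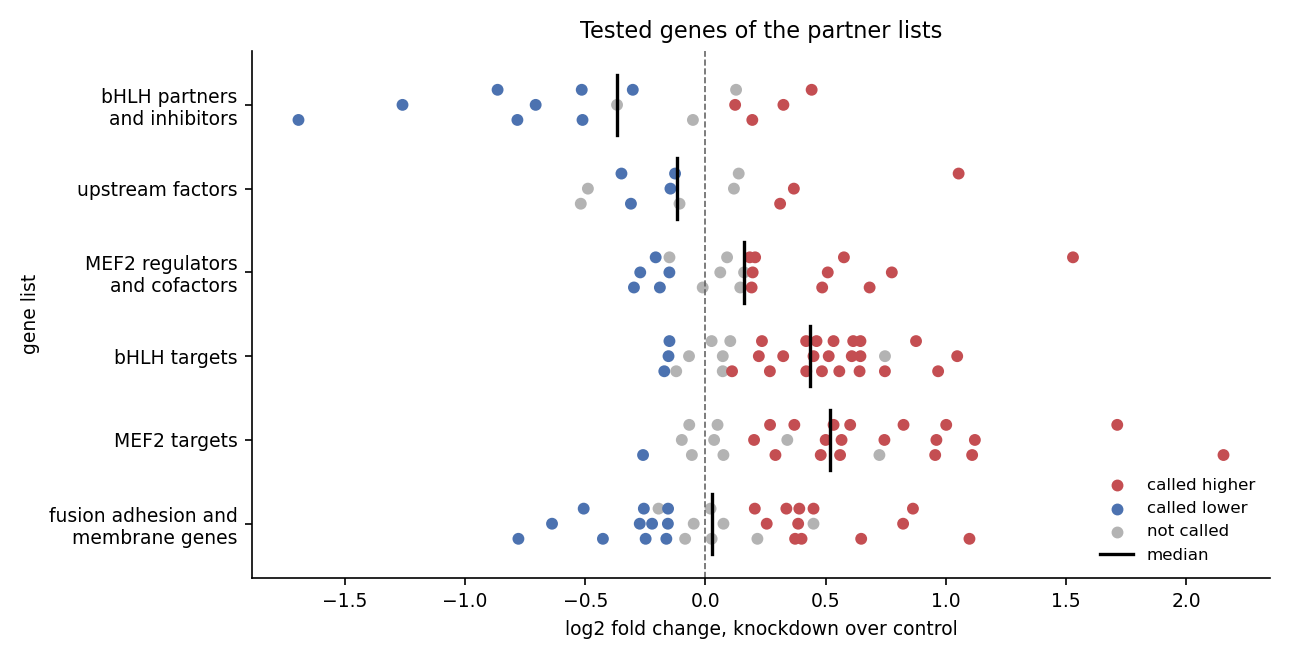
Log2 fold change, knockdown over control (horizontal axis), of the tested genes of the 6 lists (vertical axis); each point is a gene, coloured by its call, and black lines are list medians. The bHLH and MEF2 target lists have medians of 0.43 and 0.52, and the list of bHLH partners and inhibitors, which holds the Id genes, has a median of -0.37.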

How the data were processed

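The deposited table holds raw counts, 1 column for each of 6 libraries, with no scaling by the authors, as the values show. Whether runs were summed within a column cannot be read from the values. FastQC 0.11.7, fastp 0.14.1 and STAR 2.5 are named in the submitters' processing notes; the counting tool, genome build, annotation and use of strand are not given in the sources used here. Per the labels' protocols, libraries were stranded and poly-A selected. The fit used edgeR 4.0.16 under R 4.3.3: expression filter (minimum count 10, minimum total count 15), TMM scaling, quasi-likelihood test on all 6 libraries (two-sided) and Benjamini-Hochberg adjustment over the 14216 tested genes, with calls at an adjusted p under 0.05. CPM values are on the TMM scale, where 1 CPM is 12.9 to 13.8 counts; the limit of 3 counts is 0.217 to 0.232 CPM, for counting error only. Replicates within a group differed by more than counting error (chi-square per degree of freedom 2.54 to 4.53), so no library was a copy. Levels are compared between libraries, not between genes, since transcript lengths were not used.

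The members and the gene lists were chosen with earlier results of these data known. Named are all members, Tug1, and in each list the 3 highest and 3 lowest called genes with a mean of at least 1 CPM in the higher group; 1 gene that met this rule is counted but not reported here; others are marked as chosen after their values were seen or are given with their list. Alternatives were DESeq2 1.42.0 size factors, library totals, DESeq2's Wald test, limma-voom (limma 3.58.1), other filters, an adjusted p under 0.01, a length offset (lowess span 0.3, 13084 genes with a RefSeq GRCr8 span), the replicate number as a block and each library left out. On simulated counts with a log2 change of 0.5, the edgeR fit recovered 72.5% of 200 changed genes among 14032. The simulation changed a far smaller share of genes than the 61.7% called in the data, so this recovery need not hold for the data.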

Additional observations from a re-analysis of the deposited data

How the results depend on the processing

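Across 16 alternatives Myog, Mymx and Mef2d were always called higher, with ranges of 0.78 to 1.01, 0.47 to 0.89 and 0.64 to 0.74. Called members numbered 4 to 7, and 4 to 5 in the fits lacking 1 library. Members called higher numbered 3 with DESeq2's Wald test and at an adjusted p under 0.01, and 3 to 4 in the fits lacking 1 library, the lowest being without control replicate 3. Members called lower numbered 2 under the length offset, alone or joined to the replicate block. Myod1 was then at -0.13 (offset alone) and -0.14 (both), without a call. Myf6 lost its call with DESeq2's Wald test (0.78), limma-voom (0.75), no filter (0.77) and an adjusted p under 0.01 (0.78), and lay between 0.62 and 0.98 with 1 library removed. Mymk lost its call with DESeq2's Wald test (0.26) and an adjusted p under 0.01 (0.26), and lay between 0.18 and 0.32 with 1 library removed. The length offset, alone or joined to the block, put Mef2a at -0.21 and Mef2c at -0.31. With 1 library removed, Mef2a lay between -0.00141 (without control replicate 2) and 0.0683, and Mef2c between -0.0858 and 0.0357, the highest being without control replicate 3. Library totals put Mef2c at 0.0196. Apart from the offset, which acts on span by construction, the cause was not tested.

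Whether replicate numbers pair libraries was not settled by these values, with 3 libraries per group. Same-numbered deviations from the group mean had correlations of -0.00531, 0.0298 and 0.027, and not every library correlated best with its own number. Differently numbered ones had correlations from -0.0323 to 0.00586. Under the replicate block the calls numbered 8848 instead of 8773, and Myf6 (0.77) missed the threshold, with an edgeR adjusted p just over 0.05. Counts of calls on the 6 lists stayed within 1.5 times throughout. With library totals 55.8% of called genes were higher, instead of 50%, and the median of all tested genes was 0.06. Over 544 combinations of alternatives and the 34 other genes that met the naming rule, 502 kept direction and call, 38 were weaker and 4 reversed. The reversals were Tcf4 (-0.19) and Eya1 (-0.0279 and -0.0282), both under the length offset, alone or joined to the block. Genes named outside the rule are not in this tally, and among them Tcf12 also reversed (0.12, or -0.25 with the offset). Depth limits Myf5 and Myf6, at about 1 CPM or less in controls.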

Other observations

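Ratios of counts within a library do not depend on scaling, and 4 were formed after the values had been seen. Per Myod1 count, the control libraries held 4.67, 4.32 and 4.88 Myog counts and the knockdown libraries 11.0, 11.1 and 8.74, a log2 difference of 1.14. Mef2d had 0.345, 0.381 and 0.329 counts per Mef2a count in controls and 0.546, 0.565 and 0.547 after knockdown. Per Mef2c count, Mef2d had 1.40, 1.48 and 1.13 counts in controls and 2.04, 2.34 and 2.19 after knockdown. Mymx had 0.412, 0.426 and 0.327 counts per Mymk count in controls and 0.583, 0.535 and 0.433 after knockdown. None of the 4 overlapped between groups, where 65.6% of single tested genes did not overlap. Each had p = 0.1 in an exact two-sided permutation test, the smallest that 3 against 3 libraries allow. Since the pairs were chosen on their values, this separation is a description and not a test. Genomic span was not taken into account in these ratios, and Mef2a and Mef2c are longer genes than Mef2d.

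Among 9442 genes averaging 10 CPM or more, those whose log2 CPM followed Myog most closely over the 6 libraries were Nemf, Plxna3, Gadd45a, LOC108351184 and Plpp1, all with Pearson's r of 0.999 or 1.00 when rounded. Gadd45a, a growth arrest and stress gene, rose from 243 ± 3.42 to 383 ± 11.0 CPM (SD, n = 3). The 6 libraries fall into 2 groups, and 1614 genes had an r above 0.95, so the ranking is a description of these libraries.

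Skeletal myosin heavy chain genes did not move alike. Embryonic Myh3 rose from 176 to 275 CPM, while the adult fast chain Myh1 fell from 42.9 to 25.3 CPM (log2 fold change -0.76). Both were chosen after their values were seen, and how reads shared by these related genes were counted is not given in the sources used here.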
